A study of Mus musculus with 12 samples.

Results

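Homologous recombination and the Fanconi anaemia pathway repair DNA that replication cannot pass, and the genes described here encode their proteins. The set holds 37 genes listed by name, with no threshold on a measured value, in 6 roles: damage signalling, end processing, the BRCA group, strand invasion, the Fanconi pathway and the processing of joined DNA molecules. A gene counted as measured where a probe set of the array carried its symbol and no other, which gave 35 of the 37 among 19937 measured genes, over 39 probe sets. Rbbp8 and Xrcc2 were not analysed here, and H2afx is given under its current symbol H2ax. RNA came from blood progenitors sorted from the bone marrow of C57BL6 mice at day 14 after intraperitoneal pIpC. Knockout (KO) mice were Mx1-Cre wt/wt;Lamtor2f/f and control (WT) mice Mx1-Cre wt/wt;Lamtor2 wt/wt, as the labels write them, with 3 mice per genotype. Mice of both genotypes thus received pIpC and, by the series' design text, carried Mx-Cre, a recombinase that interferon switches on and that is not restricted to blood cells. Ages are not given in the labels. The LSK sort, negative for lineage markers and positive for Sca1 and c-Kit, contains stem cells with the earliest multipotent progenitors. The GMP sort, negative for lineage markers and Sca1 and positive for c-Kit, CD34 and FcγR, contains progenitors of granulocytes and macrophages. Each cell type gave 3 arrays from KO and 3 from WT mice, and the question was how loss of Lamtor2, a subunit of the lysosomal Ragulator complex, changes transcripts in each cell type.

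Homologous recombination mends a broken chromosome by copying the sister chromatid. The kinases ATM and ATR signal the break, the MRE11-RAD50-NBN complex and EXO1 trim its ends, BRCA1, PALB2 and BRCA2 ready the bared strand, and a further group of proteins helps it invade the sister. Where strands of the helix are cross-linked, the Fanconi core complex attaches ubiquitin to FANCD2 and FANCI, which brings in nucleases and then recombination. The joined molecules are at last taken apart by BLM, TOP3A and RMI1 or cut by GEN1 or MUS81-EME1. Many of these genes are transcribed mainly in cells that copy their DNA, and inherited loss of the Fanconi genes is known for failure of blood stem and progenitor cells.

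Values are log2 intensities after RMA, an array method that removes background, equalises the arrays and joins the probes of a set, so a difference of 1 is a factor of 2. Array medians lay between 5.96 and 6.18. Lamtor2 read 5.11, 5.40 and 5.77 in LSK KO, against 10.39, 10.48 and 10.31 in LSK WT, and 5.53, 5.12 and 4.95 in GMP KO, against 10.80, 10.82 and 10.61 in GMP WT. It was 31.3-fold lower in LSK KO than in LSK WT and 46.6-fold lower in GMP KO than in GMP WT, so all 12 arrays matched their genotype. All 10 measured markers of LSK cells were higher, and 10 of 12 GMP markers lower, in LSK WT than in GMP WT. GMP KO replicate 1 stood apart, correlating with the rest of its group at 0.979 on average, where all other arrays lay between 0.985 and 0.996. The spread around the group mean (root mean square) was 0.218 for the GMP KO arrays, and 0.139 for LSK KO, 0.125 for LSK WT and 0.116 for GMP WT.

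In GMP cells, genes of every role fell after loss of Lamtor2. Of the 35 genes, 26 fell and 0 rose in GMP KO against GMP WT at an adjusted p under 0.05 (limma), where 10.3% of all genes fell and 5.78% rose. All 35 differences were below 0, and their median was -0.49 on the log2 scale, against 0.01 over all genes tested. In 31 of the 35 the 3 KO arrays all lay below the 3 WT arrays, which held for 17.6% of all genes. The mean over the 35 genes was 7.45, 7.56 and 7.63 in GMP KO, against 8.11, 8.19 and 8.06 in GMP WT. With arrays centred on their gene median 28 repair genes fell, where 13.9% of all genes fell and 4.58% rose, and with quantile normalization repeated 21 fell, where 7.13% fell and 6.01% rose. The repeated normalization lost Exo1, Rad50, Rad51ap1, Xrcc3, Blm and Rmi1 and gained Palb2. None of the 35 differences in GMP turned its sign in the 15 alternatives run.

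Single arrays decided some of these calls, and the lost calls named next had an adjusted p between 0.0511 and 0.148 without the array in question. The count was 14 without GMP WT replicate 2, which lost Nbn, Exo1, Rad51c, Xrcc3, Rad51ap1, Fanca, Fancb, Ube2t, Fancd2, Blm, Top3a and Rmi1. It was 20 without GMP WT replicate 1 (Rad51ap1, Fanca, Fancb, Ube2t, Fancd2 and Blm lost) and 20 without GMP WT replicate 3 (Exo1, Rad51c, Xrcc3, Rad51ap1, Fancb, Blm and Rmi1 lost, Palb2 gained). Without GMP KO replicate 1, which stood apart, 24 fell (Xrcc3, Fancb, Blm and Rmi1 lost, Palb2 and Usp1 gained). Leaving out GMP KO replicate 2 gave 25 (Xrcc3, Rad51ap1 and Blm lost, Atrip and Chek2 gained), and leaving out GMP KO replicate 3 gave 24 (Rad51c, Rad51ap1 and Fancb lost, Atr gained). The share of all genes that fell moved as well, from 10.3% with all arrays to 5.31% without GMP WT replicate 2. It was 7.23% without GMP WT replicate 1 or 3, and 9.26%, 11.9% and 11.2% without GMP KO replicates 1, 2 and 3.

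Other genes moved beside these, where 10.3% of all genes fell in GMP KO and 5.78% rose. All 19 measured proliferation markers, genes of the mitotic machinery, fell in GMP KO, with a median of -1.01, and their mean lay between 8.44 and 8.82 in GMP KO against 9.55 to 9.65 in GMP WT. Of 14 macrophage markers 9 rose in GMP KO, and their mean lay between 8.25 and 8.81 in GMP KO against 6.37 to 6.51 in GMP WT. Of 12 GMP markers 3 fell and 1 rose, and of 11 mature neutrophil markers 1 fell. Of 9 mast cell and basophil markers 3 rose in GMP KO, and of 7 erythroid markers 3 fell. Of 12 lymphoid markers 2 rose and 3 fell, and of 10 LSK markers 2 rose and 1 fell. The part of these shifts in the fall of the repair genes was not tested. The arrays measured sorted pools, where fewer cells of a type and less RNA per cell cannot be told apart.

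**Figure D1:**
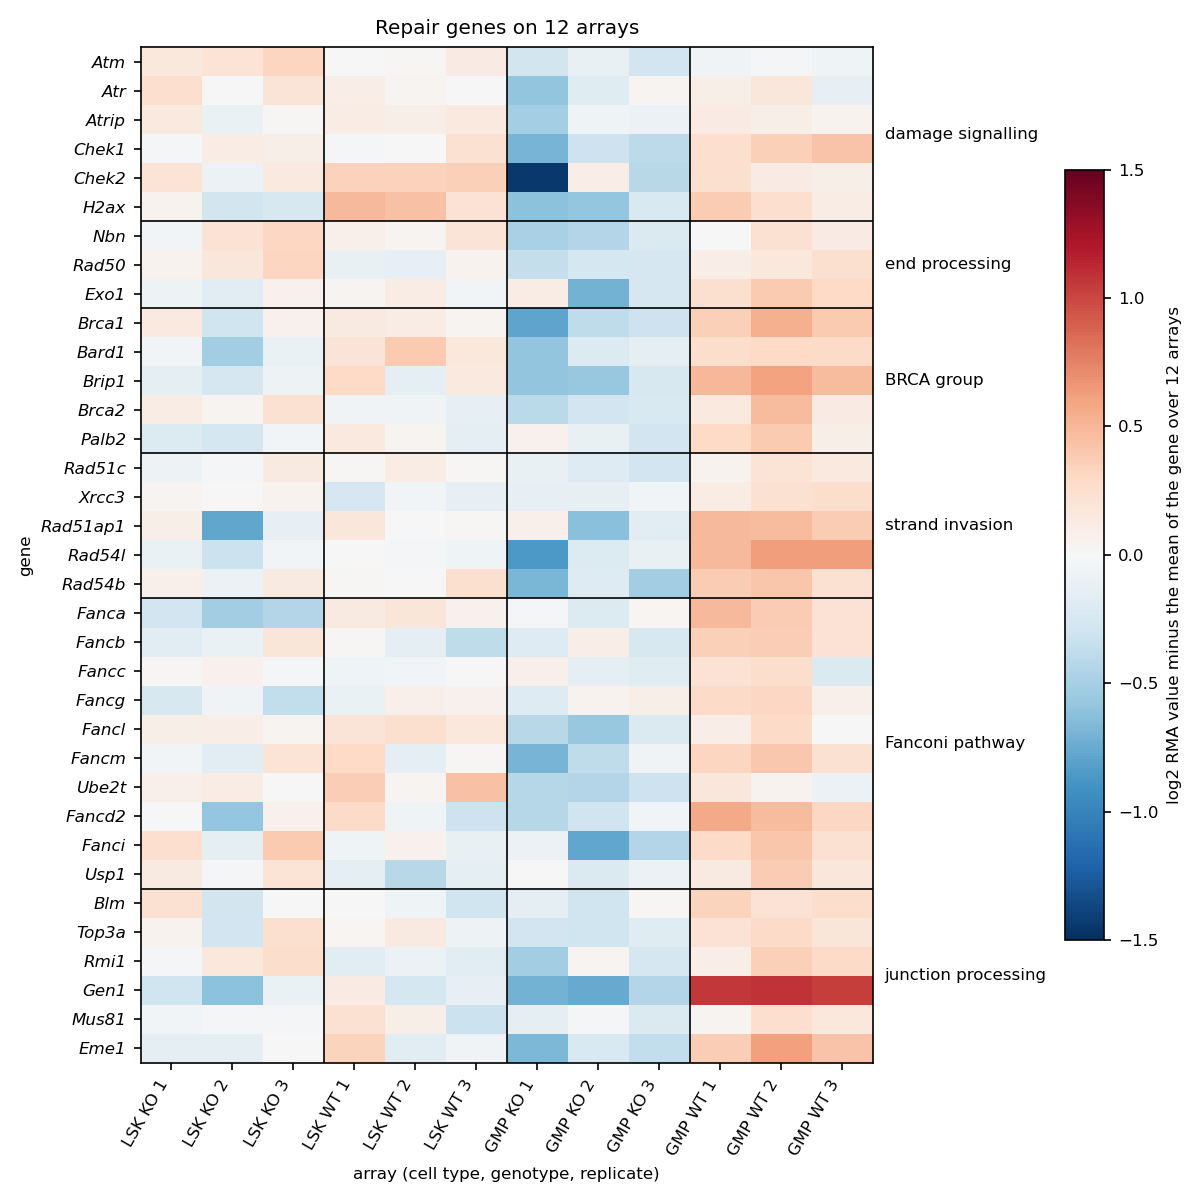
Log2 RMA value of each of the 35 repair genes (rows, grouped by role) on each of the 12 arrays (columns), minus the mean of that gene over all arrays, with red above and blue below that mean. The GMP KO columns are mostly blue and the GMP WT columns mostly red, and Gen1 shows the deepest red in GMP WT. GMP KO replicate 1 is the lowest of its group for 19 of the genes, a count not made over all genes.

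Genes that process joined DNA held the largest change. Gen1, a nuclease that cuts Holliday junctions, read 7.16, 7.11 and 7.43 in GMP KO, against 8.92, 8.96 and 8.90 in GMP WT. The groups stood far apart, with WT arrays that differed little among themselves. Gen1 fell by 1.70 ± 0.14 (SE, log2), or 3.24-fold, with an adjusted p of 5.32e-06, and ranked 9 among the decreases of all genes. It was the only member lowered at least 2-fold and the only one whose decrease passed the median of the proliferation markers, 0 of which fell more than Gen1. In LSK, Gen1 read 7.57, 7.26 and 7.77 in KO against 7.99, 7.60 and 7.74 in WT, groups that overlap. Eme1, the partner subunit of the MUS81 nuclease, read 6.41, 6.87 and 6.73 in GMP KO against 7.46, 7.70 and 7.52 in GMP WT. Its groups did not overlap, and it fell by 0.89 ± 0.14 (adjusted p = 0.000896). Mus81 itself averaged 6.13 ± 0.10 in GMP KO against 6.40 ± 0.10 in GMP WT (SD, n = 3 each) and did not pass (adjusted p = 0.179). The helicase gene Blm and its partners Top3a and Rmi1 fell by 0.41, 0.49 and 0.49. With the mean of its probe sets Rmi1 differed by -0.57 and did not pass (adjusted p = 0.066).

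Of the 5 genes of the BRCA group, 4 fell in GMP KO. Brip1, a helicase that binds BRCA1, read 7.46, 7.48 and 7.80 in GMP KO against 8.54, 8.65 and 8.52 in GMP WT. The highest KO array lay well under the lowest WT array, and Brip1 fell by 0.99 ± 0.13, or 1.99-fold (adjusted p = 0.000185). Brca1, the ubiquitin ligase that directs breaks to recombination, read 7.05, 7.46 and 7.53 in GMP KO against 8.20, 8.38 and 8.23 in GMP WT. Replicate 1 was the lowest KO array, all 3 were below WT, and the decrease was 0.92 ± 0.14 (adjusted p = 0.000626). Bard1, which pairs with BRCA1, fell by 0.59 ± 0.14 (adjusted p = 0.0118). Its other probe sets differed by -0.24 and -0.68, and Bard1 also passed with the mean of its sets. On the set with -0.24, GMP KO replicate 1 (8.68) lay above the GMP WT arrays (7.84 to 8.07). Brca2, which acts on the bared single strands, read 7.61, 7.73 and 7.78 in GMP KO against 8.15, 8.49 and 8.14 in GMP WT. These groups were also apart, and the decrease was 0.55 ± 0.11 (adjusted p = 0.00343). Palb2, the link between BRCA1 and BRCA2, averaged 6.46 ± 0.17 in GMP KO against 6.82 ± 0.16 in GMP WT and did not pass (adjusted p = 0.0551). Palb2 passed without GMP KO replicate 1 (adjusted p = 0.0217).

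All 5 measured genes of strand invasion fell in GMP KO. Rad54l, a motor that drives strand invasion, read 7.79, 8.44 and 8.54 in GMP KO against 9.15, 9.28 and 9.28 in GMP WT. Replicate 1 was low among the KO arrays, yet all 3 lay below WT. Rad54l fell by 0.98 ± 0.16 (adjusted p = 0.00111). Its paralogue Rad54b read 6.37, 6.86 and 6.53 in GMP KO against 7.44, 7.47 and 7.28 in GMP WT. Again no KO array reached a WT array, and the decrease was 0.81 ± 0.13 (adjusted p = 0.000878). Rad51ap1, which aids the pairing of strands, fell by 0.68, with KO arrays that spread more (SD 0.36 in GMP KO against 0.06 in GMP WT). Rad51c and Xrcc3, whose proteins act together in recombination, fell least, by 0.33 and 0.30.

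Among the genes that signal damage, 2 of 6 fell in GMP KO. Chek1, the kinase that ATR activates to hold the cell cycle, read 7.92, 8.30 and 8.23 in GMP KO against 8.87, 8.97 and 9.04 in GMP WT. Every KO array lay below every WT array, and Chek1 fell by 0.81 ± 0.11 (adjusted p = 0.000389). H2ax, the histone variant that is phosphorylated around breaks, read 10.00, 10.04 and 10.39 in GMP KO against 11.01, 10.87 and 10.74 in GMP WT. The gap between its groups was smaller, and the decrease was 0.73 ± 0.13 (adjusted p = 0.0023). The apical kinases did not pass: Atm averaged 8.27 ± 0.10 in GMP KO against 8.45 ± 0.01 in GMP WT, and Atr 8.10 ± 0.32 against 8.39 ± 0.15. Atrip, the partner of ATR, averaged 7.42 ± 0.25 in GMP KO against 7.73 ± 0.04 in GMP WT. Chek2, the kinase downstream of ATM, ranged widely, from 6.98 to 8.53 in GMP KO against 8.53 to 8.67 in GMP WT (adjusted p = 0.0788). Its lowest value was that of replicate 1, and without GMP KO replicate 2, the highest, it passed (adjusted p = 0.00515).

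All 3 measured genes of end processing fell. Rad50, the ATPase of the complex that tethers ends, read 9.50, 9.60 and 9.61 in GMP KO against 9.96, 10.01 and 10.10 in GMP WT. Both groups were tight and apart, with a decrease of 0.46 ± 0.10 (adjusted p = 0.00587). With quantile normalization repeated the difference of Rad50 was -0.29 and did not pass (adjusted p = 0.0519). Nbn, the subunit that recruits ATM, fell by 0.50 ± 0.11 (adjusted p = 0.00974) on its brighter probe set. Its dimmer probe set averaged 6.65 in GMP KO and 6.60 in GMP WT, and the mean of both sets did not pass (adjusted p = 0.123). Exo1, a nuclease that lengthens the single strand, fell by 0.59 ± 0.16 (adjusted p = 0.0212).

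Of the 10 Fanconi genes 7 fell in GMP KO, among them both proteins that receive ubiquitin and the pair that attaches it. Fancl, the ubiquitin ligase of the core complex, read 7.19, 7.04 and 7.38 in GMP KO against 7.70, 7.89 and 7.59 in GMP WT. No KO array reached a WT array, though the gap between them was narrower than the range of either group, and Fancl fell by 0.53 ± 0.11 (adjusted p = 0.00435). Ube2t, the ubiquitin enzyme that works with FANCL, fell by 0.44 ± 0.11 (adjusted p = 0.0173). Fanci read 7.30, 6.61 and 6.96 in GMP KO against 7.68, 7.81 and 7.62 in GMP WT. Replicate 2 was its lowest KO array, and the decrease was 0.74 ± 0.16 (adjusted p = 0.00771). Fancd2, the partner of FANCI, fell by 0.71 ± 0.18 (adjusted p = 0.017). Fancm, the translocase that anchors the core complex to DNA, read 6.064, 6.385 and 6.717 in GMP KO against 7.085, 7.166 and 6.997 in GMP WT. Its KO arrays spread over a wider range than those of WT and did not reach them, and the decrease was 0.69 ± 0.16 (adjusted p = 0.00933). Fanca, a large subunit of the core complex, read 7.53, 7.36 and 7.60 in GMP KO against 8.06, 7.94 and 7.78 in GMP WT. Its groups were closer, with a decrease of 0.43 ± 0.10 (adjusted p = 0.0128). Fancb fell by 0.43 ± 0.13 (adjusted p = 0.0404). The core genes Fancc and Fancg and Usp1, the protease that removes the ubiquitin, differed by -0.17, -0.25 and -0.33 and did not pass.

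**Figure D2:**
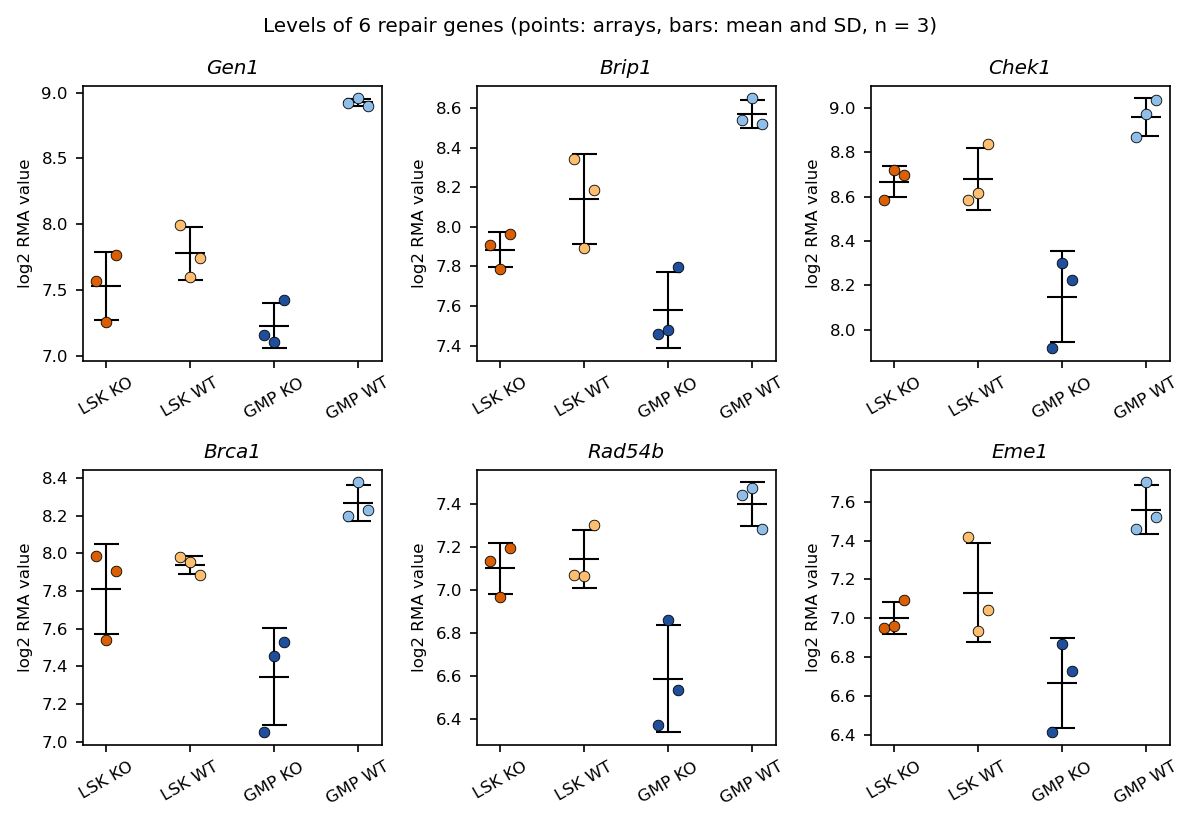
Log2 RMA values of 6 repair genes (panels) on the 3 arrays of each group, with KO left of WT in both cell types; points are arrays, bars the mean and SD. In each panel the GMP KO points lie below all GMP WT points, and Gen1 lies between 7.11 and 7.43 in GMP KO against 8.90 to 8.96 in GMP WT.

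Promoter sequence is shown because so many of these genes moved together. RefSeq starts on GRCm38.p6 gave windows of 250 bases before to 50 bases from the start for 27 of the 35 genes, 19 of which fell in GMP KO. Shares of all genes are here taken over the 27025 genes with such a window, not over the 19937 measured. On either strand, the E2F letters (TTTGGCGC, TTTCCCGC, TTTGCCGC or TTTCGCGC) stood in 6 of the 27, or 22.2%, against 2.6% of 27025 genes. Of these 6, namely Chek2, Bard1, Brca2, Rad51c, Fancg and Rmi1, 4 fell. The letters CCAAT stood in 16, or 59.3%, against 41.1% of all genes, and 11 of the 16 fell. TTTGAA, the letters of the cell cycle homology region, stood in 2 (7.41%, against 20.2%) and CACGTG in 2 (7.41%, against 8.09%). No 2 kinds of match overlapped in these genes. A match is a description of letters only. The stretches below give the gene's own strand, 5′ to 3′, with CCAAT or its complement ATTGG in capitals for the first 4 and the E2F letters for the last 2. Brip1 lies on the minus strand at chr11:86201219-86201298, Ube2t on the plus strand at chr1:134962437-134962533, Brca1 on the minus strand at chr11:101552006-101552065 and Rad54l on the minus strand at chr4:116123711-116123770. Brca2 lies on the plus strand at chr5:150522426-150522485 and Bard1 on the minus strand at chr1:71103148-71103207.
Brip1: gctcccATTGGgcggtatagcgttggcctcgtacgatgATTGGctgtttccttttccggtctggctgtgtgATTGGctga
Ube2t: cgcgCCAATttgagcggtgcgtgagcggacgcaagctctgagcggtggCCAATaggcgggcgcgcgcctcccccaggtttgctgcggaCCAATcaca
Brca1: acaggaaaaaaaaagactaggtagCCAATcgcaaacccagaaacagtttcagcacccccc
Rad54l: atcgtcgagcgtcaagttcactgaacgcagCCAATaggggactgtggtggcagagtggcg
Brca2: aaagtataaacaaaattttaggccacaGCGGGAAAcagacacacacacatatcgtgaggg
Bard1: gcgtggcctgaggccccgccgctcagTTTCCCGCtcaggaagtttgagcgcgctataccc
Brip1 and Ube2t each hold 3 CCAAT matches in the stretch shown, and the others shown hold 1 match each.

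Gen1, the gene that fell most, starts back to back with Smc6, a subunit of a complex that also acts on joined chromosomes, and the starts lie 79 bases apart. The 78 bases between them, on the strand of Gen1 (minus) at chr12:11265808-11265885, hold none of the letters searched.
Gen1: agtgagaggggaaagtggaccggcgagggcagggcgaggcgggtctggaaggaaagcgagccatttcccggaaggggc
Smc6 fell by 0.81 in GMP KO (adjusted p = 0.0028) and differed by 0.18 in LSK (adjusted p = 0.669). Such pairs were looked up after the values had been seen. A pair was a repair gene and a gene that starts on the other strand and runs away from it within 1000 bases. Of 11 measured pairs the repair gene fell in 8, the neighbour in 1 (Smc6), and no neighbour rose. Of the 35 repair genes 26 fell in GMP KO, and of all genes 10.3% fell and 5.78% rose. The other neighbours differed by between -0.42 and 0.36, such as Nbr1 beside Brca1 (0.10) and Mrpl27 beside Eme1 (-0.38).

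In LSK cells 2 of the 35 repair genes fell in KO and 0 rose, where 1.96% of all genes fell and 2.49% rose. Both also fell in GMP. Fanca read 7.29, 7.05 and 7.13 in LSK KO, against 7.70, 7.74 and 7.63 in LSK WT. The groups stood clear of each other, and Fanca fell by 0.53 ± 0.10 (adjusted p = 0.00967). H2ax read 10.67, 10.35 and 10.38 in LSK KO against 11.11, 11.06 and 10.84 in LSK WT. Its groups were nearer, and it fell by 0.53 ± 0.13 (adjusted p = 0.0368). Neither call was held by every array: without LSK WT replicate 2 both were lost (adjusted p = 0.0505 for Fanca and 0.136 for H2ax). H2ax also missed the threshold without LSK WT replicate 1, LSK KO replicate 2 or LSK KO replicate 3 (adjusted p = 0.14, 0.137 and 0.14). Over all 35 genes the median difference was -0.06, against -0.01 over all genes tested, with 23 below 0 and 12 above. In 5 genes all LSK KO arrays lay below all LSK WT arrays, against 13.2% of all genes.

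Several genes with clear decreases in GMP overlapped between the LSK groups. Brca1 read 7.98, 7.54 and 7.91 in LSK KO against 7.98, 7.95 and 7.89 in LSK WT. Chek1 read 8.59, 8.72 and 8.70 in LSK KO against 8.58, 8.62 and 8.84 in LSK WT. For both the difference (-0.13 and -0.01) lay within the spread of the arrays. Brip1 read 7.91, 7.79 and 7.96 in LSK KO against 8.34, 7.90 and 8.19 in LSK WT, and Rad54l 8.56, 8.34 and 8.61 against 8.65, 8.64 and 8.59. Rad54b read 7.14, 6.97 and 7.20 in LSK KO against 7.07, 7.06 and 7.30 in LSK WT, and Eme1 6.95, 6.96 and 7.09 against 7.42, 6.94 and 7.04. None of these 4 passed the test in LSK. Fanci read 7.64, 7.25 and 7.78 in LSK KO against 7.32, 7.45 and 7.28 in LSK WT, and Fancm 6.72, 6.61 and 6.97 against 7.07, 6.63 and 6.78. Fancl read 7.69, 7.69 and 7.64 in LSK KO against 7.80, 7.85 and 7.76 in LSK WT, a small step that left the groups apart but did not pass (adjusted p = 0.667). Brca2 read 8.12, 8.05 and 8.24 in LSK KO against 7.96, 7.95 and 7.89 in LSK WT, so its KO arrays were all higher (difference 0.20, adjusted p = 0.4). Rad50 read 9.91, 10.03 and 10.18 in LSK KO against 9.75, 9.73 and 9.92 in LSK WT, groups that overlap slightly. Bard1 differed by -0.47 in LSK (adjusted p = 0.0872) on the probe set used. Of its other sets, the brightest in LSK WT averaged 7.34 in LSK KO against 8.37 in LSK WT, and with the mean of all 3 sets Bard1 passed (adjusted p = 0.0432). LSK KO replicate 2 was the lowest of its group for 22 of the 35 genes, a count not made over all genes. Of the proliferation markers 0 of 19 passed in LSK (median -0.25), 5 of 14 macrophage markers and 5 of 12 GMP markers rose in LSK KO, and 2 of 10 LSK markers fell. Over all genes 2.49% rose in LSK KO and 1.96% fell. The mean of the macrophage markers was 6.83, 7.80 and 7.11 on LSK KO replicates 1, 2 and 3, against 5.81 to 6.05 in LSK WT. That of the mature neutrophil markers was 7.26, 8.82 and 7.57, against 7.31 to 9.18 in LSK WT. The part of these shifts in the LSK values was not tested.

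**Figure D3:**
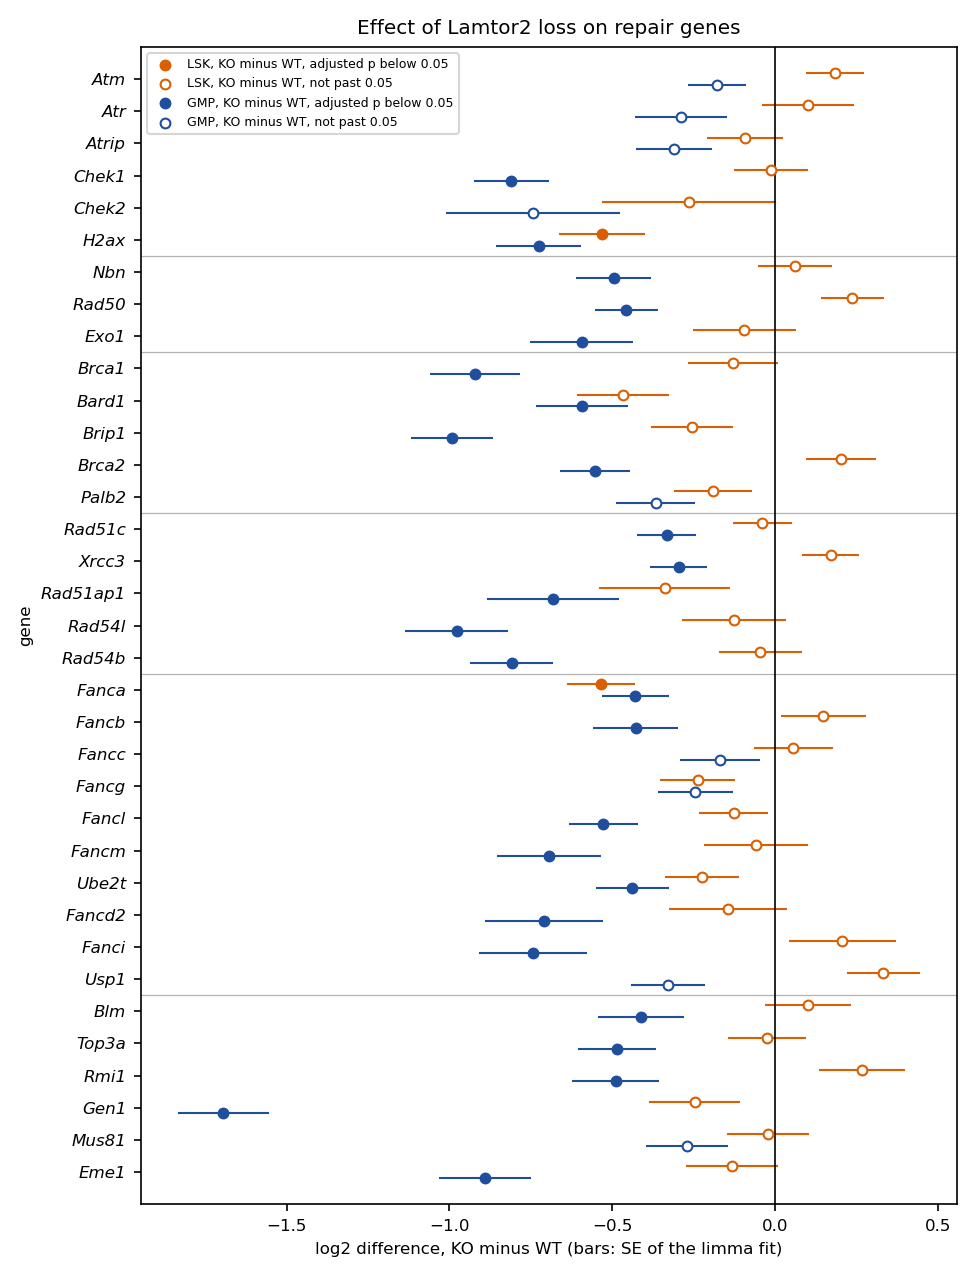
Log2 difference of each of the 35 repair genes, KO minus WT, in LSK (orange) and GMP (blue), with the SE of the fit as bars and filled points where the adjusted p was under 0.05. All 35 GMP points lie left of 0, with Gen1 farthest at -1.70, while the LSK points lie between -0.53 and 0.33.

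The effect of KO was tested for a difference between the cell types, as the effect in LSK minus that in GMP. It differed for 13 of the 35 genes, each with a positive value, that is, a change in LSK that was less negative than in GMP or above 0, and 0 had a negative one that passed. Over all genes 5.34% had a positive value that passed and 2.64% a negative one. Gen1 led with 1.45 ± 0.20 (adjusted p = 0.0015), followed by Fanci (0.95 ± 0.23), Rad54l (0.85 ± 0.23) and Chek1 (0.80 ± 0.16). The others were Brca1, Brip1, Brca2, Xrcc3, Rad50, Rad54b, Usp1, Rmi1 and Eme1, with values between 0.47 and 0.79. The median over the 35 genes was 0.50, against -0.03 over all genes tested. H2ax (0.19 ± 0.19) and Fanca (-0.11 ± 0.15), which fell in both cell types, showed no difference that passed. The count depended on single arrays. It was 4 without LSK KO replicate 3 (2.83% of all genes positive and passing) or without GMP WT replicate 2 (2.48%). It was 6 on leaving out replicate 1 of LSK KO (3.75% of all genes) or replicate 2 of LSK WT (2.97%). Leaving out LSK WT replicate 1 or 3 gave 7 (3.52% and 3.86%), and leaving out GMP WT replicate 3 gave 8 (3.42%). Calls lost this way had an adjusted p between 0.0504 and 0.0969. With centred arrays 16 genes had a positive value that passed, where 7.91% of all genes did and 1.89% had a negative one, and with repeated quantile normalization 7, where 2.94% and 2.5% did. The repeated normalization lost Brip1, Xrcc3, Rad50 (0.46, adjusted p = 0.0549), Rad54l, Fanci and Usp1. Rmi1 did not pass with the mean of its probe sets (0.68, adjusted p = 0.167). Chek1, Brca2 and Gen1 passed in all of the 20 alternatives run.

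Set against GMP cells, LSK cells had lower levels of some repair genes in WT mice and higher levels of some in KO mice, with Brca2 called in both. In WT mice 8 of the 35 genes were lower in LSK than in GMP and 0 higher, where 9.32% of all genes were lower and 10.3% higher. These were Gen1 (-1.15 ± 0.14, adjusted p = 4.98e-05), Rad54l (-0.61), Fancb (-0.49), Usp1 (-0.46), Brip1 (-0.43), Eme1 (-0.43), Xrcc3 (-0.34) and Brca2 (-0.32). Without GMP WT replicate 2 the count was 2, where 6.5% of all genes were lower. It was 4 without LSK WT replicate 2 or 3 or GMP WT replicate 1 or 3 (6.93%, 7.49%, 7.45% and 7.18% of all genes). Gen1 passed in each of these, and the calls lost had an adjusted p between 0.0538 and 0.217. With centred arrays 14 were lower, where 2989 of the 19937 genes were lower and 1563 higher. In KO mice 10 were higher in LSK than in GMP, where 10.1% of all genes were higher: Fanci (0.60), Nbn (0.55), Chek1 (0.52), Rad54b (0.51), Fancl (0.47), Rad50 (0.47), Brca1 (0.47), Atm (0.45), Ube2t (0.45) and Brca2 (0.43). One gene, Fanca, was lower in LSK KO than in GMP KO (-0.34, adjusted p = 0.0409), where 5.79% of all genes were. Nbn did not pass with the mean of its probe sets (0.21, adjusted p = 0.139). The count of higher genes was 6 without LSK KO replicate 3 (Brca1, Brca2, Fanci and Rad54b lost), where 5.18% of all genes were higher. Fanca lost its call without LSK KO replicate 2 or 3 or GMP KO replicate 1 or 3 (adjusted p = 0.123, 0.124, 0.0767 and 0.103). These comparisons share their arrays with those of KO against WT. Of the 4 group means, that of GMP WT was the highest for 26 of the genes and that of GMP KO the lowest for 28. Both held for 19 of the genes, against 9.2% of all genes. Neighbours in this order were often close: Chek1 averaged 8.67 ± 0.07 in LSK KO and 8.68 ± 0.14 in LSK WT, between 8.15 ± 0.20 in GMP KO and 8.96 ± 0.08 in GMP WT.

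Genes of nearby pathways also fell in GMP KO, in shares that differed between lists, where 10.3% of all genes fell and 5.78% rose. Of 39 measured genes of the replication machinery, 29 fell and 0 rose, with a median of -0.53. Examples were Gins3 (-1.22) and Gins1 (-0.93), subunits of the replicative helicase, Fen1 (-1.05), the flap nuclease, Pola1 (-0.81) and Prim1 (-0.75), of the polymerase that starts strands, and the ligase gene Lig1 (-0.79). Of 48 other genes of recombination and cross-link repair 13 fell and 0 rose, with a median of -0.19. They included the bypass polymerase gene Polh (-1.05), Mcm8 (-0.88), a helicase subunit, Polq (-0.78), the polymerase of an error-prone joining route, and Rpa1 (-0.58), which coats single strands. Mre11a, the nuclease partner of RAD50 and NBN, fell by 0.43 (adjusted p = 0.00512), and Fignl1 fell in both cell types, by 0.64 in GMP KO and by 0.36 in LSK KO.

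Checkpoint and chromatin response genes gave 11 decreases and 1 increase among 28, with a median of -0.33. Clspn, the adaptor that lets ATR activate CHEK1, fell by 0.74, Rad18, a ubiquitin ligase at stalled forks, by 0.68, and the fork protein gene Tipin by 0.67. Cdc25a, a phosphatase that CHEK1 restrains, fell by 0.51 and Parp2 by 0.46. In the end joining route, which rejoins breaks without a template, 3 of 15 genes fell and 1 rose, against 10.3% and 5.78% of all genes. The Ku subunit gene Xrcc6 fell by 0.70, Nhej1 by 0.62 and Aplf by 0.57, while the gene of the other Ku subunit, Xrcc5, rose by 1.38 (adjusted p = 0.000559). Targets of p53 went both ways, with 4 that rose and 5 that fell among 23 and a median of 0.00. Btg2 rose by 1.41, Pmaip1 by 1.15 and Perp by 0.70, while Ckap2 fell by 1.04, Sesn1 by 0.53 and Ccng1 by 0.49. Of 25 regulators of cell cycle transcription 7 fell in GMP KO, among them the CDK inhibitor gene Cdkn2c (-0.97), E2f6 (-0.75) and the pocket protein gene Rbl1 (-0.72). In LSK KO, where 1.96% of all genes fell and 2.49% rose, 2 of 39 replication genes fell. Of the 48 other repair genes 2 fell and 1 rose there, and 0 of 15 end joining and 0 of 28 checkpoint genes passed. Of the 23 p53 targets 3 fell and 1 rose in LSK KO, with Sesn1 at -0.66, Ckap2 at -0.57 and Perp at 1.01, and 2 of the 25 cell cycle regulators fell.

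**Figure D4:**
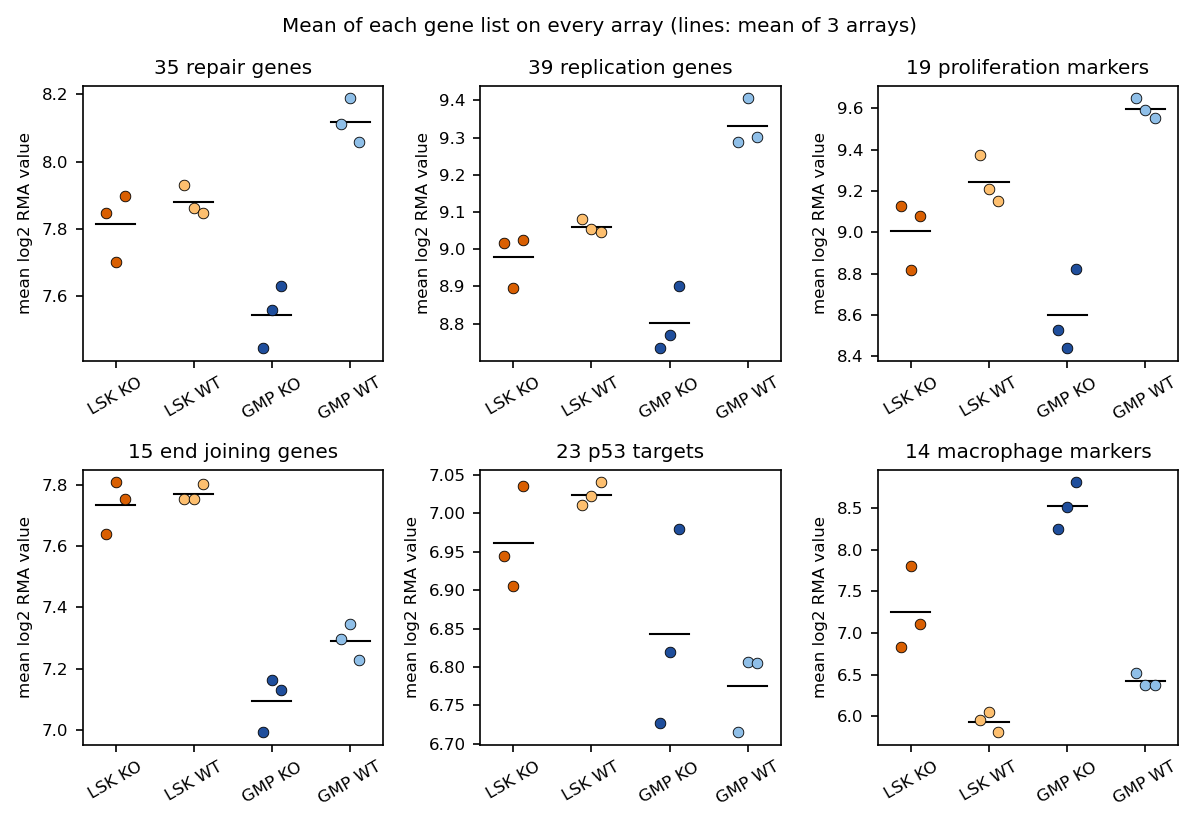
Mean log2 RMA value of the 35 repair genes and of 5 other lists (panels) on each array, with KO left of WT in both cell types; lines are the means of 3 arrays and each panel has its own axis. The GMP KO points of the repair genes (7.45 to 7.63) lie below the GMP WT points (8.06 to 8.19), as in the replication and proliferation panels, and the macrophage markers lie above (8.25 to 8.81 against 6.37 to 6.51).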

How the data were processed

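Per the labels, the RNA of each sort (Qiagen RNeasy Micro Kit) was amplified by NuGEN WT-Ovation Pico, given biotin by the Ambion WT Expression Kit and read on 12 Affymetrix arrays. The authors deposited log2 values made with RMA, per the labels; no software, version or genome build is given in the sources used here. Of 34760 probe sets, 21640 carried a single gene symbol, and the brightest set stood for each of 19937 genes. The number of arrays limits the precision. All 4 groups were fitted together with limma 3.58.1 in R 4.3.3 (lmFit and eBayes, residual df 8). Two-sided p-values were adjusted by Benjamini-Hochberg over all 19937 genes, with 0.05 as threshold; the procedure was tested on simulated data. Levels are means ± SD of 3 arrays, and differences carry the SE of the fit.

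Members, lists and tests were chosen with earlier results of these data known. All members are named; values on every array are given for the 14 with the smallest p in KO against WT (LSK or GMP) or in the difference between these effects, and up to 6 genes past the threshold for each other list. The labels do not tie LSK to GMP samples by mouse. Deviations of LSK and GMP arrays with the same genotype and replicate number correlated between -0.179 and 0.177, so the numbers were not taken to pair them. Alternatives were repeated quantile normalization, centred arrays, a filter on the dimmest 30% of genes, averaged probe sets, eBayes with trend and robust, array weights, fits of just 2 groups, replicate blocks, and each array left out.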

Additional observations from a re-analysis of the deposited data

Results flagged for a closer look

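The effect of KO differed between LSK and GMP for 13 repair genes, by the interaction term of the limma fit. As the effect in LSK minus that in GMP, on the log2 scale, the values were 1.45 for Gen1, 0.95 for Fanci, 0.85 for Rad54l, 0.80 for Chek1 and 0.79 for Brca1. They were 0.76 for Rad54b, 0.76 for Eme1, 0.76 for Rmi1, 0.76 for Brca2 and 0.74 for Brip1. Rad50 had 0.69, Usp1 0.66 and Xrcc3 0.47. With the mean of its probe sets Rmi1 had 0.68 and did not pass (adjusted p = 0.167). Each of the 13 had a negative difference in GMP, and that of Usp1 did not pass there (adjusted p = 0.0656). Single genes were not searched for outlying arrays, since each group had 3.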

How the results depend on the processing

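No call of a repair gene changed sign under any alternative, and of the 1769 alternative values of genes that passed neither in the reported fit nor in the alternative, 63 had the opposite sign. In GMP KO against WT, 13 of the 26 decreases passed in all 15 alternatives (Chek1, H2ax, Brca1, Bard1, Brip1, Brca2, Rad54l, Rad54b, Fancl, Fancm, Fanci, Gen1 and Eme1). The count was 19 in a fit of the 2 groups alone, where 5.18% of all genes fell. It lay between 14 and 25 with an array left out, where 5.31% to 11.9% of all genes fell. In LSK KO against WT 1 gene fell with centred arrays and 1 with the replicate block (H2ax lost, adjusted p = 0.0623 and 0.052). Of all genes 1.63% and 1.87% fell there. With an array left out 0 to 2 fell, against 1.0% to 1.25% of all genes. In GMP the replicate block gave 25 decreases, where 9.87% of all genes fell. It gave 13 differing KO effects (5.06% of all genes positive and passing), with Eme1 lost (adjusted p = 0.0538) and Nbn gained (0.0367). Those effects numbered 7 with repeated quantile normalization (2.94% of all genes) and 4 to 15 with an array left out (2.48% to 6.86%). Between WT LSK and WT GMP, 8 genes were lower in the reported fit, where 9.32% of all genes were. With centred arrays 14 were lower, where 2989 of all 19937 genes were. The count was 15 with array weights and 15 in the fit of the 2 groups, where 14.1% and 13.4% of all genes were lower. With an array left out 2 to 7 were lower, against 6.5% to 7.49% of all genes. There 0 to 1 were higher (Ube2t, without LSK WT replicate 2), against 7.96% to 8.65% of all genes. Gen1 passed in all 15 alternatives. Between KO LSK and KO GMP, 3 were higher in the fit of the 2 groups, where 4.17% of all genes were. With an array left out 6 to 13 were higher, against 5.18% to 12.3% of all genes. The count of lower genes was 0 with centred arrays, trend and robust options, array weights or the fit of the 2 groups. Of all genes 6.04%, 5.77%, 5.57% and 2.49% were lower there. It was 0 to 1 with an array left out, against 3.18% to 7.96% of all genes. Rad50 passed in all 15. The causes were not tested. With 3 arrays a group, a difference that missed the threshold is not shown to be absent.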
